A study of Drosophila melanogaster with 3 samples.

Results

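Aminoacyl-tRNA synthetases are the enzymes that attach each amino acid to its transfer RNA, and their genes were examined for binding of the zinc-finger protein Neu2 in early Drosophila melanogaster embryos. Genes were chosen by symbol alone: protein-coding genes of the dm6 annotation whose symbol is a three-letter amino acid name followed by RS, with or without a suffix, and GluProRS. The rule found 33 genes of 13945 protein-coding genes. By symbol, 18 encode cytoplasmic enzymes and 15 carry the suffix -m of the mitochondrial enzymes. The cytoplasmic phenylalanyl-tRNA synthetase genes alpha-PheRS (FBgn0030007) and beta-PheRS (FBgn0039175) are spelled differently, fell outside the rule and are given separately. Genes without the suffix were counted as cytoplasmic, also where, as known in humans for the glycyl and lysyl enzymes, 1 gene serves both compartments.

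Each synthetase recognises 1 amino acid and the transfer RNAs that read its codons, and joins them in a reaction that uses ATP. The ribosome then takes the charged transfer RNA from an elongation factor. Cytoplasm and mitochondria translate separately, and most amino acids have a separate nuclear gene for the mitochondrial enzyme. In animals several cytoplasmic synthetases form a multisynthetase complex, and early embryos, which translate large maternal stores of messenger RNA, depend on charged transfer RNA throughout.

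Chromatin immunoprecipitation followed by sequencing was carried out on whole embryos of mixed sex, 2 to 4 h old, in 3 biological replicates that form a single group. Embryos came from a transgenic line, Neu2-GFP, that stably expresses Neu2 with GFP at its C-terminus, and all 3 libraries carry this transgene. The precipitation used an anti-GFP antibody per the sample description, although the antibody field of the labels names Neu2, and fragments of sonicated chromatin measured 200 to 800 bp. No library of untagged embryos was analysed here, so signal that does not depend on Neu2 was not measured. With a single group there was no comparison between samples, and genes were compared with each other by counts, shares and ranges without a test. In whole embryos, strong binding in few nuclei and weak binding in all nuclei cannot be told apart.

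The deposited lists gave each call a position, a summit and a signal value computed by the authors. The optimal list held peaks with signals from 88.6 to 998, and a relaxed list of 30000 calls was given for each replicate and for the pooled replicates. The relaxed lists hold peaks and background together. Read depth was not recorded in the lists, so replicate signals were divided by the median of that replicate at the optimal peaks (47.0 in replicate 1, 47.8 in replicate 2 and 33.1 in replicate 3) and are called relative signal. A gene was said to carry a peak if any of its transcription start sites (TSSs) lay no more than 1000 bp from an optimal summit.

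The first question was how many synthetase genes carried a Neu2 peak. An optimal peak was carried by 5 of the 33 synthetase genes (15.2%, 95% exact interval 5.11 to 31.9), against 8.73% of all protein-coding genes, and the interval holds the background share. They were LeuRS-m, MetRS, SerRS, AspRS and GlnRS. Cytoplasmic enzymes made up 4 of these, out of 18 (22.2%, interval 6.41 to 47.6), and the mitochondrial leucyl enzyme was the 1 of 15 in the other class (6.67%, interval 0.169 to 31.9). The intervals of the cytoplasmic and the mitochondrial share overlap over most of their length. Neither alpha-PheRS nor beta-PheRS carried a peak, and their strongest pooled calls had signals of 28.8 and 40.2.

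Support in single replicates was weaker. A peak was called matched in a replicate when one of its strongest calls, as many as the optimal list holds, had a summit no more than 200 bp away. LeuRS-m alone carried a peak matched in all 3 replicates (1 of 33, 3.03%, interval 0.0767 to 15.8), against 4.12% of all protein-coding genes. None of the 18 cytoplasmic genes did, which leaves an upper bound of 18.5%. The peaks at MetRS, SerRS, AspRS and GlnRS were each matched in 1 replicate. Whichever replicate was left out, asking for a match in both others kept LeuRS-m and 0 cytoplasmic genes, against 4.72%, 5.26% and 5.16% of all protein-coding genes without replicates 1, 2 and 3. With a matching distance of 100 bp, 0 synthetase genes carried a peak matched in all 3 replicates, and with all relaxed calls open to matching all 5 did.

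**Figure D1:**
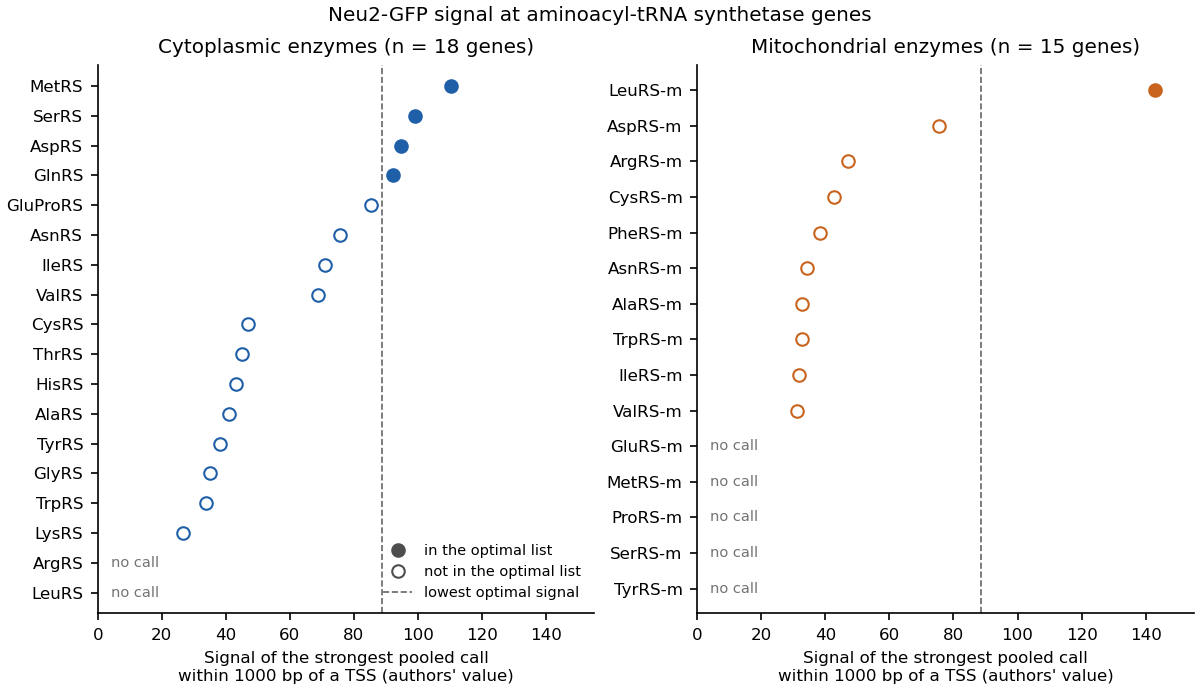
Signal of the strongest call of the relaxed pooled list within 1000 bp of a TSS (x axis, the authors' value, no unit) for the 18 cytoplasmic genes on the left and the 15 mitochondrial genes on the right, each point 1 gene. Filled points are the 5 genes with an optimal peak, which run from 92.0 at GlnRS to 143 at LeuRS-m, the dashed line marks the lowest optimal signal of 88.6, and 7 genes had no call.

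LeuRS-m (FBgn0027085, 3L from 4825853 to 4829038, plus strand) encodes the mitochondrial leucyl-tRNA synthetase and carried the strongest of the 5 peaks. The peak covered 4824835 to 4825274 with its summit at 4825055, and its pooled signal of 143 ranked 486 in the optimal list, where rank 1 is the strongest. In relative signal replicate 1 gave 1.02, replicate 2 gave 1.51 and replicate 3 gave 0.814, which averages 1.11 ± 0.359 (SD, n = 3). The replicates thus lay on both sides of the median optimal peak, with replicate 2 highest. The summit was 798 bp upstream of the LeuRS-m TSS and inside an intron of Dhc64C, the heavy chain gene of cytoplasmic dynein, which is transcribed away from LeuRS-m. The TSSs of both genes are 166 bp apart, and that of Dhc64C was nearer to the summit, which lay 632 bp downstream of it. The coefficient of variation of relative signal over the replicates was 32.2%, the largest of the 5 peaks. The replicate summits also had the widest span of the 5, 128 bp. The sequence around the pooled summit is shown because this peak alone of the 5 was matched in all 3 replicates. It spans chr3L:4824980-4825130 of dm6 on the plus strand, with the summit at the central base, and none of the words searched at summits occurred within 100 bp of that base.
LeuRS-m summit: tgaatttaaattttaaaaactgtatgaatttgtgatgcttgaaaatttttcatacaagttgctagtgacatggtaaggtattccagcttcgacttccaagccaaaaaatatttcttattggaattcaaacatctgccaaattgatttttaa

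SerRS (FBgn0031497, 2L from 3035493 to 3037403, minus strand) encodes the cytoplasmic seryl-tRNA synthetase. Its peak at 3037149 to 3037588 had a signal of 98.9 and ranked 1120. Replicate 1 gave a relative signal of 0.932, replicate 2 one of 0.524 and replicate 3 one of 0.659, a mean of 0.705 ± 0.208 (SD, n = 3). Replicate 1 gave the highest value and was the replicate in which the peak was matched. The summit was 34 bp downstream of the TSS, in the 5′ UTR of SerRS. The TSS of the divergent gene CG17260 is 8 bp from that of SerRS, and the summit also lay in an intron of CG17260. The 30 bases around it, chr2L:3037354-3037383 of dm6 read on the minus strand as SerRS is, show an AT-rich stretch.
SerRS summit: aaatataaaaaaacattataaaattcttgg

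GlnRS (FBgn0027090, 3R from 25263267 to 25265721, minus strand) encodes the cytoplasmic glutaminyl-tRNA synthetase. Its peak at 25265484 to 25265923 had a signal of 92.0 and ranked 1334. Replicates 1, 2 and 3 had relative signals of 0.509, 0.639 and 0.863, a mean of 0.670 ± 0.179 (SD, n = 3). All replicates lay below the median optimal peak and replicate 3, the one in which it was matched, was highest. The summit was 17 bp downstream of the TSS in the 5′ UTR, and the TSS of RIOK2, a kinase gene that in yeast acts in maturation of the small ribosomal subunit, is 123 bp away on the opposite strand. GlnRS was the 1 peak of the 5 with the core-promoter word Motif 1 (GGTCACAC) within 100 bp of its summit, against 28 of all optimal peaks (1.90%). The site is shown with the word in capitals, at chr3R:25265705-25265734 of dm6 on the minus strand. The word begins 2 bp upstream of the GlnRS TSS and runs across it. The second line gives the bases between the TSS of RIOK2 and that of GlnRS, chr3R:25265722-25265843, on the same strand.
GlnRS Motif 1: cggtccggaacGGTCACACtgacctgcaca
GlnRS to RIOK2: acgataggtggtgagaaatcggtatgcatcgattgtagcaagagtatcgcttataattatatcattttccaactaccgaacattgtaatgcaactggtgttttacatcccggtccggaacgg

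MetRS (FBgn0034401, 2R from 18846858 to 18850599, minus strand) encodes the cytoplasmic methionyl-tRNA synthetase, which also charges the initiator transfer RNA. Its peak at 18850118 to 18850557 had a signal of 110 and ranked 880. Replicates 1, 2 and 3 gave relative signals of 0.637, 0.785 and 1.08, a mean of 0.834 ± 0.225 (SD, n = 3). Only replicate 3 placed it above the median optimal peak, and replicate 3 was also the one in which the peak was matched. The summit lay 261 bp downstream of the MetRS TSS, inside an intron of the gene, and the TSS of CG15084 lies 245 bp away from that of MetRS on the opposite strand.

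AspRS (FBgn0002069, 2R from 12877004 to 12883168, plus strand) encodes the cytoplasmic aspartyl-tRNA synthetase and has 3 annotated TSSs. Its peak at 12879665 to 12880104 had a signal of 94.6 and ranked 1253. Relative signals in replicates 1, 2 and 3 were 0.768, 0.553 and 0.704, a mean of 0.675 ± 0.110 (SD, n = 3), with all 3 replicates below the median optimal peak. The summit lay 399 bp upstream of an internal TSS of AspRS, in an intron. The nearest TSS was that of Nmda1, 87 bp away, and the summit also lay in an intron of that gene. The peak was therefore counted for AspRS through its window and not as the nearest gene.

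Of the 5 peaks, that of LeuRS-m lay above and the other 4 lay below the median signal of the 915 optimal peaks within 1000 bp of a protein-coding TSS. The median was 98.9 at the synthetase genes and 124 over those peaks. Their median rank was 1120. Distances from summit to TSS had a median of 261 bp at the synthetase genes and of 156 bp over all genes with a peak. SerRS, GlnRS and MetRS had the nearest TSS to their own peak, and LeuRS-m and AspRS did not. The spread between replicates, as a coefficient of variation of relative signal, had a median of 27.0% at the 5 peaks and of 23.4% at the 1399 optimal peaks with a call in every relaxed list. Among the 849 optimal peaks with signals inside the range of the 5, it was 26.2%, and 187 of those (22.0%) were matched in all 3 replicates.

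**Figure D2:**
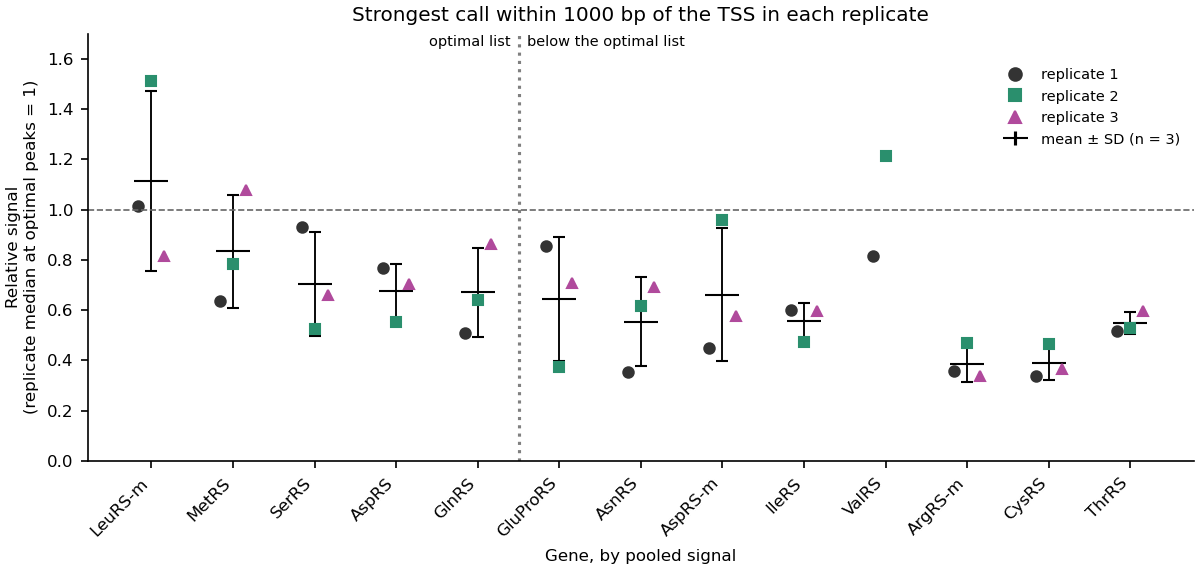
Relative signal (y axis, the replicate's median at optimal peaks set to 1) of the strongest call within 1000 bp of a TSS in each replicate, for the 5 genes with an optimal peak left of the dotted line and the 8 next genes by pooled signal to its right. Bars are mean ± SD over 3 replicates. The calls of 1 gene can lie at different positions: replicate summits spread over 1023 bp at AspRS-m, 712 bp at ArgRS-m and 1319 bp at ThrRS. Means run from 0.670 at GlnRS to 1.11 at LeuRS-m on the left, GluProRS (0.645 ± 0.247) and AspRS-m (0.662 ± 0.265) lie just below GlnRS, and ValRS has 2 values and no mean.

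Several synthetase genes lay just below the end of the optimal list. GluProRS, the bifunctional enzyme for glutamate and proline, had a pooled call of signal 85.3 (rank 1590) 130 bp upstream of its TSS. Its relative signals in replicates 1, 2 and 3 were 0.856, 0.373 and 0.706, so replicate 2 stood below the other replicates, and the mean of 0.645 ± 0.247 (SD, n = 3) overlaps those of SerRS, AspRS and GlnRS within the SD. AsnRS, the asparaginyl enzyme, had a signal of 75.7 (rank 2108) at 120 bp upstream and a relative signal of 0.554 ± 0.178 (SD, n = 3). IleRS, the isoleucyl enzyme, had a signal of 70.8 (rank 2470) at 129 bp upstream and the even relative signal of 0.557 ± 0.0728 (SD, n = 3). These 3 cytoplasmic genes had their pooled summits within 10 bp of the same distance upstream of the TSS, but the summits of single replicates did not share it. Those lay from 101 to 226 bp upstream at GluProRS, from 79 to 351 bp at AsnRS and from 150 to 283 bp at IleRS.

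AspRS-m, the mitochondrial aspartyl enzyme, had a signal of 75.5 (rank 2122) at 43 bp downstream of the inner of its 2 TSSs. Replicates 1, 2 and 3 had relative signals of 0.451, 0.959 and 0.575 (mean 0.662 ± 0.265, SD, n = 3). In replicate 1 the strongest call lay 993 bp downstream, so that value comes from another position than the calls of replicates 2 and 3. ValRS, the valyl enzyme, had a signal of 68.6 (rank 2668), 945 bp upstream. Calls of relative signal 0.817 and 1.21 stood near that position in replicates 1 and 2, and replicate 3 had no call within 1000 bp. A stronger optimal peak (signal 154) lay 1146 bp upstream of ValRS, beyond the window, next to Kdm4B, a histone demethylase gene whose TSS is 513 bp from that of ValRS. The calls of replicates 1 and 2, at 983 and 968 bp upstream, lay within 200 bp of that summit, the matching distance. They may thus belong to that peak.

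A gap then followed. The 10 synthetase genes above were among the strongest 2942 pooled calls, a limit of 2 times the optimal list chosen after the data were seen, and the next gene, ArgRS-m, the mitochondrial arginyl enzyme, ranked 7156 with a signal of 47.0. CysRS, the cysteinyl enzyme, had a signal of 47.0 (rank 7174) and ThrRS, the threonyl enzyme, one of 45.2 (rank 8012). Within that limit lay 30.3% of the synthetase genes, against 15.8% of all protein-coding genes. By class the counts were 8 of 18 cytoplasmic genes (44.4%) and 2 of 15 mitochondrial genes (13.3%). No test was made of either difference.

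Lists of single replicates named different genes. Among the strongest calls of replicate 1, as many as the optimal list holds, a summit lay within 1000 bp of AspRS, GluProRS, LeuRS-m, SerRS and ValRS (15.2%, against 8.74% of all protein-coding genes). In replicate 2 the genes were AspRS-m, HisRS, LeuRS-m and ValRS (12.1%, against 8.43%). In replicate 3 they were GlnRS, LeuRS-m and MetRS (9.09%, against 8.91%). LeuRS-m was the 1 gene present in all 3 lists. At least 1 of these lists held 9 synthetase genes (27.3%, against 14.2%), and at least 2 lists held LeuRS-m and ValRS (6.06%, against 7.44%). The count of 2 genes is near the background share.

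HisRS, the histidyl enzyme, was in the list of replicate 2 with a relative signal of 0.799 at 816 bp downstream. The relative signal was 0.326 in replicate 1, from a call 842 bp upstream and so at another position, and 0.301 in replicate 3 at 726 bp downstream. The pooled signal was 43.2 (rank 9017). HisRS shares its TSS position with Bx, the LIM-only protein Beadex. The nearest optimal peak was 142404 bp away, the farthest of any synthetase gene.

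In the relaxed lists, which include background, most synthetase genes had a call. The pooled list had one within 1000 bp of 26 of 33 (78.8%, interval 61.1 to 91.0), against 60.0% of all protein-coding genes. The counts were 25 in replicate 1 (75.8%, against 57.3%), 25 in replicate 2 (75.8%, against 59.5%) and 24 in replicate 3 (72.7%, against 58.5%). Calls in all 3 replicates were found at 19 genes (57.6%, against 36.8%), in 1 or 2 replicates at 12 genes and in 0 replicates at LeuRS and ArgRS. The strongest calls of the 3 replicates lay within 200 bp of each other at 8 of those 19 genes (42.1%), against 38.1% of all genes with calls in all 3. The 5 genes with an optimal peak were among the 8, with spans from 7 bp at GlnRS to 128 bp at LeuRS-m, as were 80.2% of all such genes with an optimal peak.

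The pooled share was 16 of 18 for cytoplasmic genes (88.9%, interval 65.3 to 98.6) and 10 of 15 for mitochondrial genes (66.7%, interval 38.4 to 88.2). This order was not kept in every library: replicate 3 had 13 of 18 cytoplasmic genes (72.2%) and 11 of 15 mitochondrial genes (73.3%). With genes without a call placed below all others, the median of the strongest pooled signal was 46.1 for cytoplasmic genes, 32.6 for mitochondrial genes, 38.3 for all synthetase genes and 31.7 for all protein-coding genes. No pooled call was found at ArgRS and LeuRS among cytoplasmic genes, and at GluRS-m, MetRS-m, ProRS-m, SerRS-m and TyrRS-m among mitochondrial genes.

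**Figure D3:**
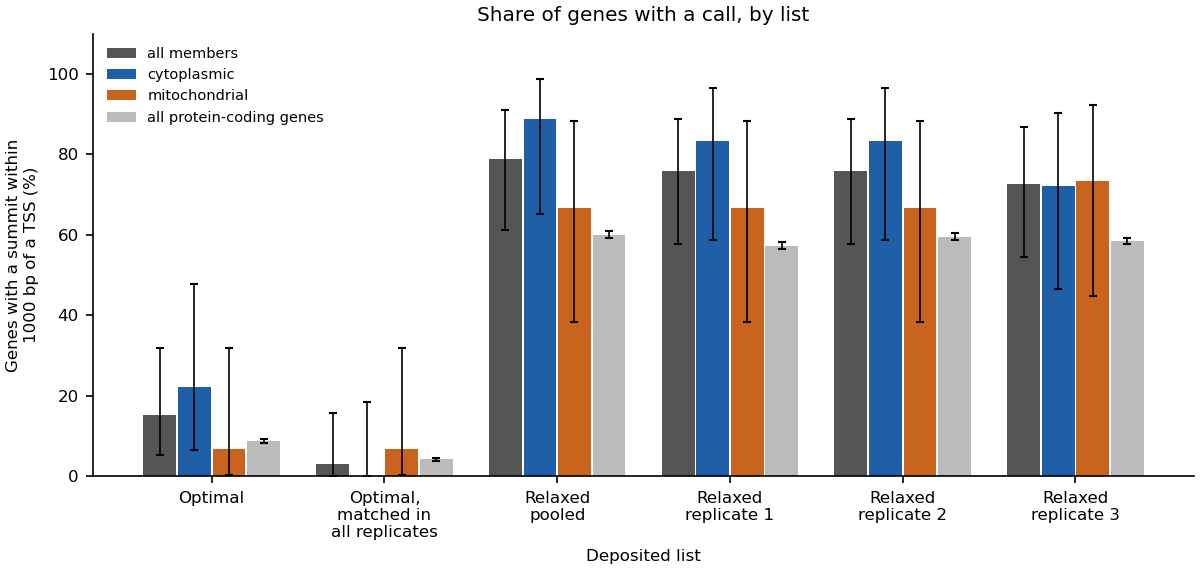
Share of genes with a summit within 1000 bp of a TSS (y axis, percent) in the optimal list, in the optimal peaks matched in all 3 replicates and in the relaxed lists, for all 33 synthetase genes, the 18 cytoplasmic genes, the 15 mitochondrial genes and all 13945 protein-coding genes. Error bars are 95% exact binomial intervals and cover the counting of genes only. In the optimal list the synthetase genes had 15.2% and all genes 8.73%, inside the interval of the synthetase genes.

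For 4 amino acids, the cytoplasmic or the mitochondrial gene of a pair had an optimal peak, and with so few peaks the pairs are given as values only. For leucine, the cytoplasmic LeuRS had no call in any list, and the mitochondrial LeuRS-m had the strongest peak of the family. That summit lay nearer to the TSS of Dhc64C (632 bp) than to that of LeuRS-m (798 bp). For methionine, MetRS had an optimal peak, and MetRS-m had no pooled call and weak calls in replicates 2 and 3 (signals 13.4 and 12.8). For serine, SerRS had an optimal peak, and SerRS-m had 1 call, in replicate 3, with a signal of 11.4 at 969 bp upstream. For aspartate, the pooled signal was 94.6 at AspRS and 75.5 at AspRS-m, and the relative signals overlapped. The AspRS summit was likewise nearer to the TSS of another gene, Nmda1.

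Grouped by the multisynthetase complex, a membership known from vertebrates and applied here after the data were seen, AspRS, GlnRS and MetRS carried peaks among 8 genes (37.5%, interval 8.52 to 75.5, against 8.73% of all protein-coding genes). The interval holds that share. Among peaks matched in all 3 replicates the count was 0 of 8, against 4.12% of all protein-coding genes. GluProRS and IleRS lay below the optimal list, LysRS had a pooled signal of 26.7 at 800 bp downstream, and LeuRS and ArgRS had no call. The complex genes therefore reached from near the top to the bottom of the family. By the 2 structural classes of synthetases, class I had peaks at 3 of 18 genes and class II at 2 of 14, against 8.73% of all protein-coding genes. GluProRS, which joins both classes, was counted in neither, and the classes were not tested against each other.

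**Figure D4:**
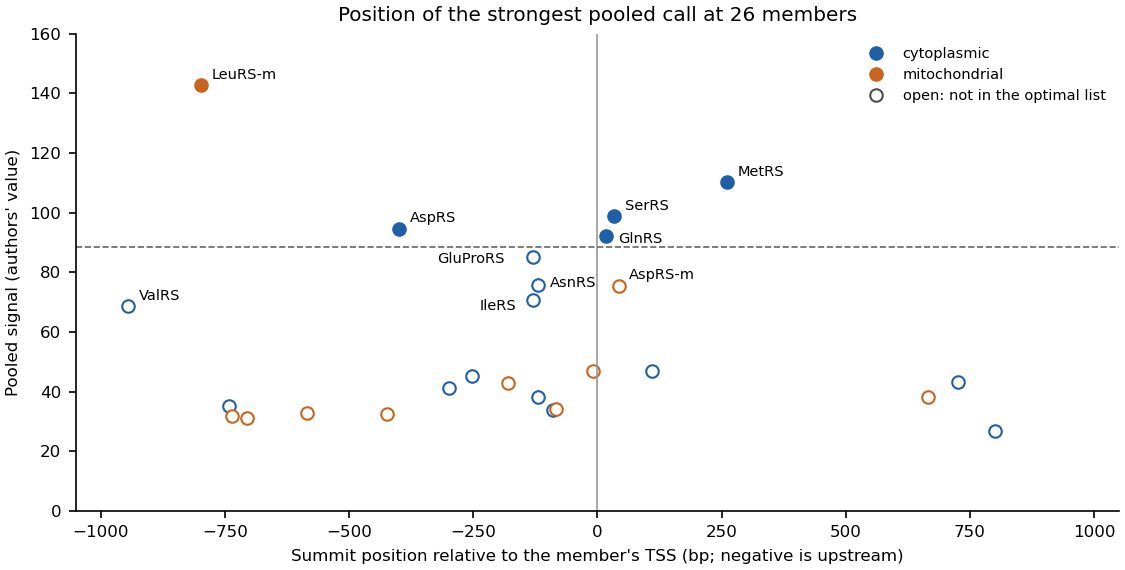
Position of the strongest pooled call at the 26 synthetase genes that had one (x axis, bp from the gene's TSS, negative upstream) against its signal (y axis, the authors' value). Filled points have an optimal peak, the dashed line is the lowest optimal signal of 88.6, and the 10 genes of highest signal are named. MetRS, SerRS and GlnRS lie downstream of the TSS, and LeuRS-m and ValRS lie 798 and 945 bp upstream.

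The strongest pooled call was upstream of the TSS at 18 of 26 synthetase genes (69.2%), against 58.4% of all genes with a call. It lay within 300 bp of the TSS, a band chosen after the data were seen, at 15 of 26 (57.7%), against 52.6%. Within that band were 11 of 16 cytoplasmic genes (68.8%) and 4 of 10 mitochondrial genes (40.0%). In the optimal list, 3 of the 5 synthetase genes with a peak had the summit downstream of the TSS, against 22.4% of all genes with a peak, and with 5 genes this was not tested.

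Synthetase genes have close neighbours. A divergent TSS lay within 500 bp at 21, a count that was not made over all genes and so has no background share. The TSS of another protein-coding gene on either strand lay within 1000 bp at 25 of 33 (75.8%), against 42.9% of all protein-coding genes. All 5 peaks were at genes with such a neighbour, as were 806 of all 1217 protein-coding genes with a peak. Each of the 5 lay within 1000 bp of TSSs of 2 genes, which was not counted over all optimal peaks. Of genes with a neighbour, 5 of 25 synthetase genes (20.0%) and 13.5% of all carried a peak. Of genes without one, 0 of 8 synthetase genes and 5.16% of all did. All 8 encode mitochondrial enzymes, with the nearest other TSS from 1222 bp (MetRS-m) to 2853 bp (PheRS-m) away. Every cytoplasmic gene had a neighbour, as did the remaining mitochondrial genes. The class counts given above were not split by spacing, so class and spacing cannot be told apart in them. Window counts thus moved with gene spacing in the whole annotation, and the part of spacing in the synthetase count was not tested. The number of TSSs was alike, with 1 TSS at 72.7% of synthetase genes and at 73.5% of all genes, and among these genes 3 of 24 (12.5%) and 6.32% carried a peak.

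Promoter sequence was searched for words of known factors in the window from 250 bp upstream to 50 bp downstream of each TSS, on both strands. The DNA replication-related element (DRE, TATCGATA), which the factor Dref binds, occurred at 6 of 33 synthetase genes (18.2%), against 10.2% of all protein-coding genes. The 6 were AlaRS, ArgRS, AspRS, IleRS and TrpRS among cytoplasmic genes and PheRS-m among mitochondrial genes. AspRS was the 1 of them with an optimal peak, its word began 18 bp upstream of the internal TSS, and it lay outside the 100 bp to either side of the summit. Within 100 bp of the 5 summits lay 0 DRE words, against 5.37% of all optimal peaks, and the 6-base core TATCGA lay at 1, that of AspRS, against 17.8%, counts that are near these shares.

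The sites at 4 of these genes are shown, with the word in capitals, because the DRE was the most frequent of the 8-base words searched at these promoters. They are on dm6 at chr3R:9266958-9266987 (minus strand) for TrpRS, chr3L:22288612-22288641 (plus strand) for IleRS, chrX:15844161-15844190 (minus strand) for ArgRS and chr2L:8381765-8381794 (minus strand) for AlaRS. The word begins 72, 42, 34 and 195 bp upstream of a TSS in that order. AlaRS has 2 TSSs, and its 195 bp counts from the inner one. Its word, at 8381776 to 8381783, lies closer to the outer TSS at 8381764.
TrpRS DRE: atatttctcatTATCGATAtttttaacagt
IleRS DRE: tcggaacctacTATCGATAtcgcgaaccca
ArgRS DRE: gctgttatcgtTATCGATAggcgacgtgtg
AlaRS DRE: atctctaaatcTATCGATAtctcatccagt
Beyond the word itself the 4 sites differ in the bases to either side. Pooled signal was 70.8 at IleRS, 41.1 at AlaRS and 33.7 at TrpRS, and ArgRS had no call in any list.

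Motif 1 (GGTCACAC) occurred at 4 synthetase genes (12.1%), against 8.71% of all protein-coding genes: GlnRS, whose site is given above, and the mitochondrial AspRS-m, ProRS-m and AsnRS-m. At AspRS-m and ProRS-m, as at GlnRS, the word on the gene's own strand began within 10 bp of a TSS. At AspRS-m this was the outer of 2 TSSs, with the word at 16827083 to 16827090. The pooled summit there, at 16827402, was counted from the inner TSS and lay farther downstream. These sites lie at chr2L:16827072-16827101 (plus strand) and chr3L:2651825-2651854 (minus strand) of dm6.
AspRS-m Motif 1: atgcggcatatGGTCACACttcatcgctgc
ProRS-m Motif 1: tacctattgctGGTCACACtgggaattcat
The word thus stood at 1 gene with an optimal peak (GlnRS), at 1 just below the list (AspRS-m) and at ProRS-m, which had no pooled call. AsnRS-m had a pooled signal of 34.2.

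Genes that act next to the synthetases were counted from 4 lists chosen by role. Together 2 of 21 carried a peak (9.52%, against 8.73% of all protein-coding genes). Of 8 genes for factors that carry or recycle the carriers of charged transfer RNA, eEF1gamma, a subunit of the exchange factor of eEF1A, had a peak of signal 174 (rank 282) at 38 bp upstream of its TSS, with relative signals of 0.933, 1.61 and 1.62 in replicates 1, 2 and 3 (mean 1.39 ± 0.395, SD, n = 3). Its partner eEF1alpha1, the carrier itself, reached a pooled signal of 82.6 without entering the optimal list. Of 3 amidotransferase genes, GatB, which helps make glutaminyl-tRNA in mitochondria, had a peak of signal 151 (rank 408) at 88 bp upstream. Its relative signals were 1.20, 1.07 and 1.33 (mean 1.20 ± 0.131, SD, n = 3). The GatB summit was nearer to Tsc1, an inhibitor of TOR signalling, and lay in the 5′ UTR of that gene.

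Both of these peaks were matched in all 3 replicates. None of the 4 scaffold or paralogue genes carried a peak: AIMP1 had a pooled signal of 73.8, and AIMP2, AIMP3 and Slimp had no pooled call. None of the 6 genes around the phosphorylation of eIF2alpha did so either. They are Gcn2, the kinase that senses uncharged transfer RNA, PEK, the kinase of the same target in endoplasmic reticulum stress, the 3 subunits of eIF2 and crc, with eIF2beta at 73.0 and crc, the fly ATF4, at 71.4 having the highest pooled signals of that list.

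The genes of the transfer RNAs, the substrates of these enzymes, were examined as well. An optimal summit fell within 1000 bp of 9 of 290 transfer RNA genes (3.10%), counted from the gene body because these genes are short, and 7 peaks accounted for them. For scale, 2.09% of the bases of the 6 arms lay within 1000 bp of an optimal summit. Counted as clusters of neighbouring genes, 6 of 174 (3.45%) had one. The genes were for threonine (tRNA:Thr-TGT-2-3 and tRNA:Thr-TGT-2-4, signal 98.9), methionine (tRNA:Met-CAT-1-2, 154), tyrosine (tRNA:Tyr-GTA-1-7 and tRNA:Tyr-GTA-1-8, 178), glutamine (tRNA:Gln-TTG-2-1, 127), valine (tRNA:Val-CAC-2-3, 90.0), tryptophan (tRNA:Trp-CCA-2-6) and glycine (tRNA:Gly-GCC-1-13). The last pair shared the peaks of signals 144 and 91.9 at the promoter of tud, a germ-plasm gene. The peak at the tyrosine genes lay 246 bp from the TSS of the protein-coding gene CG8036. The threonine and valine peaks were each matched in 1 replicate, the glutamine peak in 2 and the others in all 3.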

How the data were processed

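The authors deposited peak lists on dm6 with a signal value and a summit offset (another measure, in bp) for each call. Per the text deposited with the files, the relaxed lists served as input for the irreproducible discovery rate procedure, and calls were made against a control, which was not analysed here. The aligner, the peak caller and its threshold are not given in the sources used here. The dm3 lists were not used.

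Summits were assigned to TSSs of the Ensembl release 115 annotation (BDGP 6.54) on 6 arms with Python 3.11.15, pandas 2.3.3 and NumPy 2.4.6. Sequences were read from the RefSeq genome of the same assembly. Exact Clopper-Pearson intervals (SciPy 1.17.1) cover the counting of genes only, and figures used matplotlib 3.10.9. Signal per replicate was taken from the strongest call within 1000 bp of a TSS. Assignment was checked on simulated data. The symbol SlimP was matched to Slimp through synonyms.

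Genes and lists were chosen with earlier results of these data known. Named were all synthetase genes with an optimal peak, the 8 next by pooled signal, their cytoplasmic or mitochondrial partners, companion genes with a peak, and genes whose TSS was nearer. Other genes named were chosen after their values were seen. Alternatives changed the TSS window, the TSS used, the peak set, the replicates, the matching and the word.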

Additional observations from a re-analysis of the deposited data

How the results depend on the processing

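Over the alternatives run, 34 values kept within 1.5 times the count, or within 1 SD of the median, given in the report, and 29 did not. The 5 synthetase genes with a peak became 3 when the nearest TSS alone was used (SerRS, GlnRS and MetRS, against 6.05% of all genes), 1 among peaks matched in all 3 replicates (4.12% of all genes) and 1 among the stronger 50% of peaks (4.85%), LeuRS-m both times. Leaving out each replicate in turn, by asking for a match in both others, gave 1 to 1. In all of these settings the share of all genes was also below 8.73%. The cytoplasmic count of 4 became 0 among peaks matched in all 3 replicates, 0 among those stronger peaks and 0 to 0 without each replicate. The mitochondrial count of 1 became 0 at 500 bp and 0 with the nearest TSS alone. Among genes with 1 TSS, an alternative chosen after seeing the data, 3 synthetase genes, 2 of them cytoplasmic, carried a peak; there fewer genes were counted. Adding alpha-PheRS and beta-PheRS, also chosen after seeing the data, changed no count. The median signal of 98.9 became 143 among peaks matched in all 3 replicates and 143 to 143 without each replicate, where LeuRS-m stood alone. The median distance of 261 bp became 147.5 bp at 500 bp, 399 bp at 2000 bp, 147.5 bp with the outer TSS and 798 to 798 bp without each replicate. Peaks matched in all 3 replicates numbered 0 at a matching distance of 100 bp and 5 when all relaxed calls could match. The DRE count of 6 became 12 with its 6-base core, which 31.3% of all genes hold, and the transfer RNA gene count of 9 became 5 among peaks matched in all 3 replicates. Where no construction is named, the cause was not tested.

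No paired analysis was possible because the replicates form a single group. Depth per library was unknown, so an unbound gene cannot be told apart from one below detection. With 33 genes the intervals are wide, and that of the optimal share holds the share of all genes. The 4 cytoplasmic peaks each rest on 1 replicate among the strongest calls.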

Other observations

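Of the other words searched, the GAGA word (GAGAG) occurred at 7 of 33 synthetase promoters (21.2%), against 36.4% of all protein-coding genes, and at 0 of the 5 genes with an optimal peak. The E-box (CACGTG) occurred at GlnRS, LeuRS-m and ThrRS (9.09%, against 5.34%), of which the first pair carried a peak, although no E-box lay within 100 bp of a summit. The word TGATGCAA, of the type that ATF4 binds in mammals when amino acids are short, occurred at the ThrRS promoter (3.03%, against 1.09%) and within 100 bp of the MetRS summit (11 optimal peaks, 0.748%). The Zelda word (CAGGTAG) and the CTCF word (AGGTGGCG) were at 0 synthetase promoters, against 2.30% and 0.932% of all genes. These words were searched on both strands and are descriptions of sequence only.

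The nearest optimal peak was more than 10000 bp away from 19 of the 33 synthetase genes (57.6%), against 71.2% of all protein-coding genes. It was 1000 to 5000 bp away from 4 genes (9.73% of all genes), among them AsnRS with a peak of signal 90.4 at 1655 bp upstream, and 5000 to 10000 bp away from 5 (10.4% of all genes).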
